A study of Saccharomyces cerevisiae with 30 samples.

Results

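The 7 genes described here encode the yeast mRNA methyltransferase complex and its reader. They were chosen by systematic name, as *IME4* (YGL192W), *KAR4* (YCL055W), *MUM2* (YBR057C), *SLZ1* (YNL196C), *VIR1* (YGL036W), *DYN2* (YDR424C) and *PHO92* (YDR374C, also called *MRB1*). These are 7 of the 7126 genes in each count table, and all 7 passed the filter on low counts in all 9 comparisons.

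The modified base N6-methyladenosine (m6A) is placed on mRNA by a protein complex and is bound by proteins with a YTH domain. In budding yeast the mark is known from cells that enter meiosis, when diploid cells are starved and supplied with acetate. Ime4p is the catalytic subunit and the relative of METTL3 in mammals, and Kar4p belongs to the same protein family as METTL14. Mum2p is the relative of WTAP in mammals, Slz1p brings the complex into the nucleus, and Vir1p is the relative of virilizer. Dyn2p is the light chain of dynein and is also found in the complex. Pho92p carries the YTH domain and is the reader.

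Polysomal mRNA and total mRNA were measured by RNA-seq in 3 strains. Cells were harvested 5 h after the shift to SPO medium, in which potassium acetate is the carbon source and meiosis is induced. All 3 strains were *MATa*/*MATα* diploids of the SK288C background, in the S288C lineage, with deletions at *HIS3*, *LEU2*, *LYS2* and *URA3*. They carried *TAO3* and *MKT1* alleles of the sporulating type but lacked the *RME1* promoter allele of that type. WT cells were *IME4*/*IME4* with *rme1-S288C*, the highly expressed allele of the meiotic repressor *RME1*. The *ime4-cat* strain had the same background and was homozygous for an *IME4* allele whose protein is made without activity. The *rme1-10* strain was *IME4*/*IME4* and carried *RME1* with 1 base exchanged in its untranslated region. Polysomal mRNA came from the pooled polysome fractions of a sucrose gradient and total mRNA from the lysate before the gradient. There were 18 libraries in 6 sets of 3. The methods describe the libraries of a set as biological replicates.

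The libraries carry a title and, in the names of their tables, a strain number with a letter for polysome (p) or total RNA (t). For 12 of the 18 libraries the title disagrees with that number and letter. The sets below are named by strain number and letter. By title, the set called WT total here is the polysomal mRNA of *rme1-10* cells, *ime4-cat* total is the input of WT cells, *rme1-10* polysome is the input of *rme1-10* cells and *rme1-10* total is the input of *ime4-cat* cells. The 6 libraries of the WT polysome and *ime4-cat* polysome sets have the same name under both, so only polysomal *ime4-cat* against WT is free of the disagreement. Every other comparison depends on which name is right. The alleles differ from WT by 2 codons or 1 base, and a count per gene does not check them.

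Depth ranged from 586141 to 6009889 counts on genes per library, with a median of 807826 in the polysome sets and 1716516 in the total sets. Levels are given as CPM, the share of a library's counts on genes that fell on 1 gene, scaled to 1000000 counts and adjusted by TMM over all 18 libraries. Every library held meiotic prophase mRNAs, with a summed level over 15 markers between 1316 and 5483 CPM, of which *MER1* was at 0 in 1 library. The summed level of 11 haploid markers lay between 207 and 275 CPM. Among those, *MFA2* was at 0 in 4 libraries and *STE18* and *MF(ALPHA)1* were each at 0 in 1. Library 3 of the *ime4-cat* total set stood apart from the other 2 libraries of its set, with a prophase marker sum of 3266 CPM against 1553 and 1392, and the results of the comparisons that hold it are given with and without it.

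The allele *ime4-cat* changes 2 codons of *IME4* (D348A and W351A, residues counted from 1 at the first methionine). The reference sequence around them is shown because these codons are the listed difference between the strains of the first comparison below. It is coding bases 1033 to 1062 on the plus strand of chrVII:143278-143307 of the RefSeq R64 genome, with the exchanged codons in capitals.
IME4: gttattgcaGATcctgcaTGGaatatccat

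In R64, the build named sacCer3 in the processing notes, *IME4* lies at VII 142246 to 144048 (+), *KAR4* at III 27929 to 28936 (+), *MUM2* at II 352193 to 353293 (−) and *SLZ1* at XIV 270275 to 271171 (−). *VIR1* lies at VII 428601 to 431330 (+), *DYN2* at IV 1319387 to 1319841 (−) and *PHO92* at IV 1223474 to 1224394 (−). *DYN2* has 3 coding exons and the others have 1. No annotated gene overlaps *KAR4*, *MUM2*, *SLZ1*, *VIR1*, *DYN2* or *PHO92*. The antisense RNA *RME2* (VII 141898 to 144120, minus strand) covers the whole of *IME4*. The methods name the NEBNext Ultra RNA kit, which does not mark the strand, while the labels name a kit of another maker, and the strand setting of the counting is not given in the sources used here. The *IME4* counts may therefore hold *RME2* reads, and its values are uncertain.

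The upstream windows of the 7 genes, from 250 bases before the start codon to 50 after it, were searched on both strands for 3 motifs. GGCGGC is the core of URS1, the element bound by Ume6p at early meiotic genes. It was present in the windows of 4 members (*IME4*, *SLZ1*, *VIR1* and *PHO92*) and in 308 of all 6001 windows (5.13%). The 4 matches are shown with the motif in capitals, each 5′ to 3′ on the strand of the gene. They lie at chrVII:142002-142031 (+), chrXIV:271289-271318 (−), chrVII:428478-428507 (+) and chrIV:1224606-1224635 (−). The motifs begin 232, 135, 111 and 229 bases before the start codon in that order, and the match of *SLZ1* is on the opposite strand.
IME4: tatgcgtctttaGGCGGCttttggcgtaca
SLZ1: acaatatgaataGCCGCCgaaattatgccc
VIR1: tgcttggatctcGGCGGCagttttttctgt
PHO92: acgatgtacctcGGCGGCtaatctttttgg

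TGAAACA is the pheromone response element, bound by Ste12p, with which Kar4p acts in mating. It was found in the windows of 3 members (*KAR4*, *MUM2* and *VIR1*) and in 450 of all 6001 (7.50%). *KAR4* is shown because it was the member with 2 matches, both on the opposite strand, 145 and 100 bases before its start codon (chrIII:27772-27801 and chrIII:27817-27846, plus strand).
KAR4 first: gctctgtagtctTGTTTCAcacttcgtcat
KAR4 second: tgcgacataactTGTTTCAacttttcaagt

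The third motif, CACAAA, is the core of the middle sporulation element bound by Ndt80p and Sum1p. It was present in the windows of *SLZ1* and *PHO92* and in 1130 of all 6001 windows (18.8%). None of the matched letters overlapped a match of another motif. A match of letters does not show that a factor binds.

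In WT polysomes *SLZ1* mRNA had the highest level of the 7 genes per coding length, at 938 ± 58.7 CPM per kb (SD, n = 3). *DYN2* followed at 369 ± 73.8 CPM per kb, with no library in common with the range of *SLZ1* or *MUM2*. Its place rests on a coding length of 279 bases. Without division by length *DYN2* had the lowest mean of the 7 in WT polysomes, at 103 CPM. *MUM2* at 276 ± 26.4 and *PHO92* at 272 ± 20.7 CPM per kb overlapped. *KAR4* stood at 127 ± 17.3, *VIR1* at 106 ± 16.7 and *IME4* at 103 ± 16.5 CPM per kb, and each of these overlapped the one above it except *KAR4*. The mRNA of the catalytic subunit had the lowest mean of the 7 in 5 of the 6 sets, with the uncertainty from *RME2* given above. *SLZ1* had the highest mean in 5 of the 6 sets. It stood at 965 ± 19.8 CPM per kb in WT total, 817 ± 125 in *rme1-10* polysomes, 855 ± 83.0 in *rme1-10* total and 343 ± 153 in *ime4-cat* total, where its libraries overlapped those of *DYN2* at 256 ± 125. In *ime4-cat* polysomes *DYN2* came first at 309 ± 117 CPM per kb and *SLZ1* second at 225.5 ± 18.5, and their libraries overlapped. *KAR4* was last there, at 61.1 ± 10.7 CPM per kb, and it overlapped *IME4* at 72.3 ± 17.5.

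**Figure D1:**
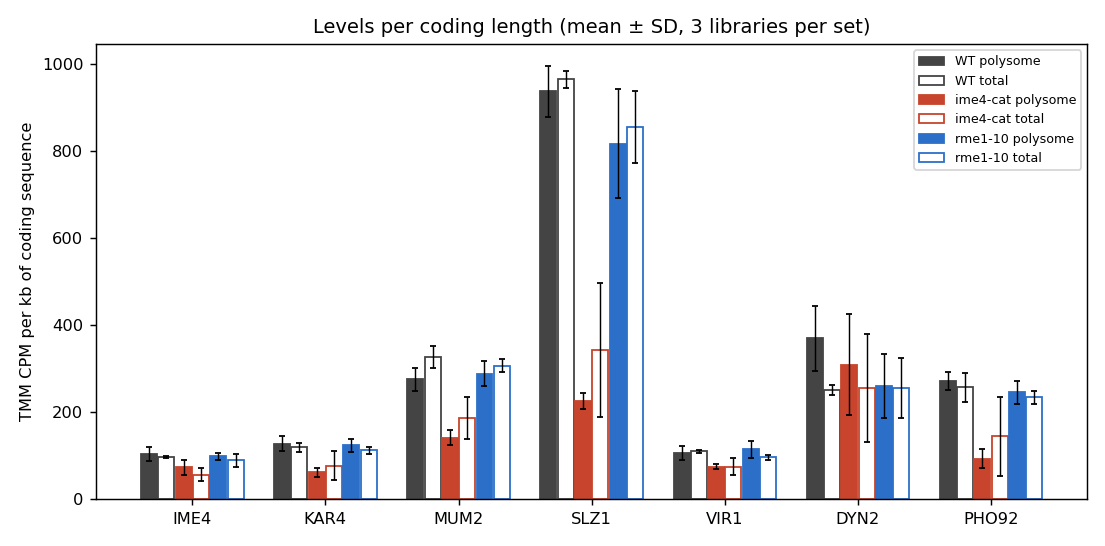
Mean level of each gene per kb of coding sequence (TMM CPM per kb, y axis) in the 6 sets named by strain number and letter, with SD over 3 libraries. SLZ1 stands at 938 CPM per kb in WT polysomes and 225.5 in ime4-cat polysomes, while DYN2 stands at 369 and 309.

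The first comparison asks what loss of Ime4p activity did to the polysomal mRNAs of the complex itself. In *ime4-cat* polysomes 5 of the 7 mRNAs fell and none rose (edgeR quasi-likelihood test, adjusted p under 0.05). *SLZ1* fell 4.23-fold, *PHO92* 2.92-fold, *KAR4* 2.101-fold, *MUM2* 1.96-fold and *VIR1* 1.45-fold. *IME4* and *DYN2* did not pass the test. Of all 5493 genes tested 17.7% were called in either direction and 9.38% were called lower. The median log2 fold change of the 7 was −0.97, against −0.01 over all genes tested. In RNA from a whole culture, fewer cells of a type and less RNA per cell cannot be told apart.

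The mRNA of the catalytic subunit, *IME4*, was at 219, 177 and 161 CPM in WT libraries 1 to 3 and at 160, 97.4 and 133 CPM in *ime4-cat* libraries 1 to 3. All *ime4-cat* values lay below all WT values, by less than 1 CPM at the closest pair. The log2 fold change was −0.51 (SE 0.180) with an adjusted p of 0.0575. It passed the threshold without *ime4-cat* polysome library 1 (−0.69, adjusted p = 0.0104), and over all 13 alternatives the adjusted p ranged from 0.00137 to 0.221.

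*KAR4*, whose protein also acts as a transcription factor in mating, was at 120, 116 and 148 CPM in WT and at 68.6, 66.9 and 49.2 CPM in *ime4-cat* polysomes. The groups were well apart, since the highest *ime4-cat* library lay far under the lowest WT library. The log2 fold change was −1.07 (SE 0.184, adjusted p = 3.66e-04).

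*MUM2* was at 294, 336 and 281 CPM in WT and at 174, 138 and 153 CPM in *ime4-cat* polysomes. No libraries overlapped, and the log2 fold change was −0.97 (SE 0.151, adjusted p = 1.38e-04).

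*SLZ1* was at 782, 884 and 858 CPM in WT and at 191, 195 and 221 CPM in *ime4-cat* polysomes. This was the largest change of the 7 genes, and the libraries within each set were close to each other. The log2 fold change was −2.08 (SE 0.148, adjusted p = 5.96e-09).

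*VIR1* was at 296, 239 and 329 CPM in WT and at 206, 185 and 218 CPM in *ime4-cat* polysomes. The sets did not overlap, although WT library 2 and *ime4-cat* library 3 were near each other. The log2 fold change was −0.53 (SE 0.153, adjusted p = 0.0189). The call rests on single libraries. It was lost without WT polysome library 3 (−0.43, adjusted p = 0.149), without *ime4-cat* polysome library 2 (−0.48, adjusted p = 0.0613) and without *ime4-cat* polysome library 3 (−0.57, adjusted p = 0.0537), and in 1 fit over all 18 libraries (−0.52, adjusted p = 0.0519).

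*DYN2* was at 94.3, 126 and 88.2 CPM in WT and at 55.6, 120 and 82.5 CPM in *ime4-cat* polysomes. The sets overlapped, and the *ime4-cat* libraries were spread widely. The log2 fold change was −0.31, with an interval from −0.76 to 0.15 (2 SE either side) and an adjusted p of 0.401.

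The reader *PHO92* was at 238, 241 and 272 CPM in WT and at 107, 80.2 and 68.5 CPM in *ime4-cat* polysomes. The sets were far apart, and the log2 fold change was −1.55 (SE 0.171, adjusted p = 1.86e-06). Taking the 7 genes by their libraries, all 3 *ime4-cat* values lay below all 3 WT values for every gene except *DYN2*, and the same was true of 16.1% of all genes tested. *KAR4*, *MUM2*, *SLZ1* and *PHO92* were called lower under each of the 13 alternatives tried.

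**Figure D2:**
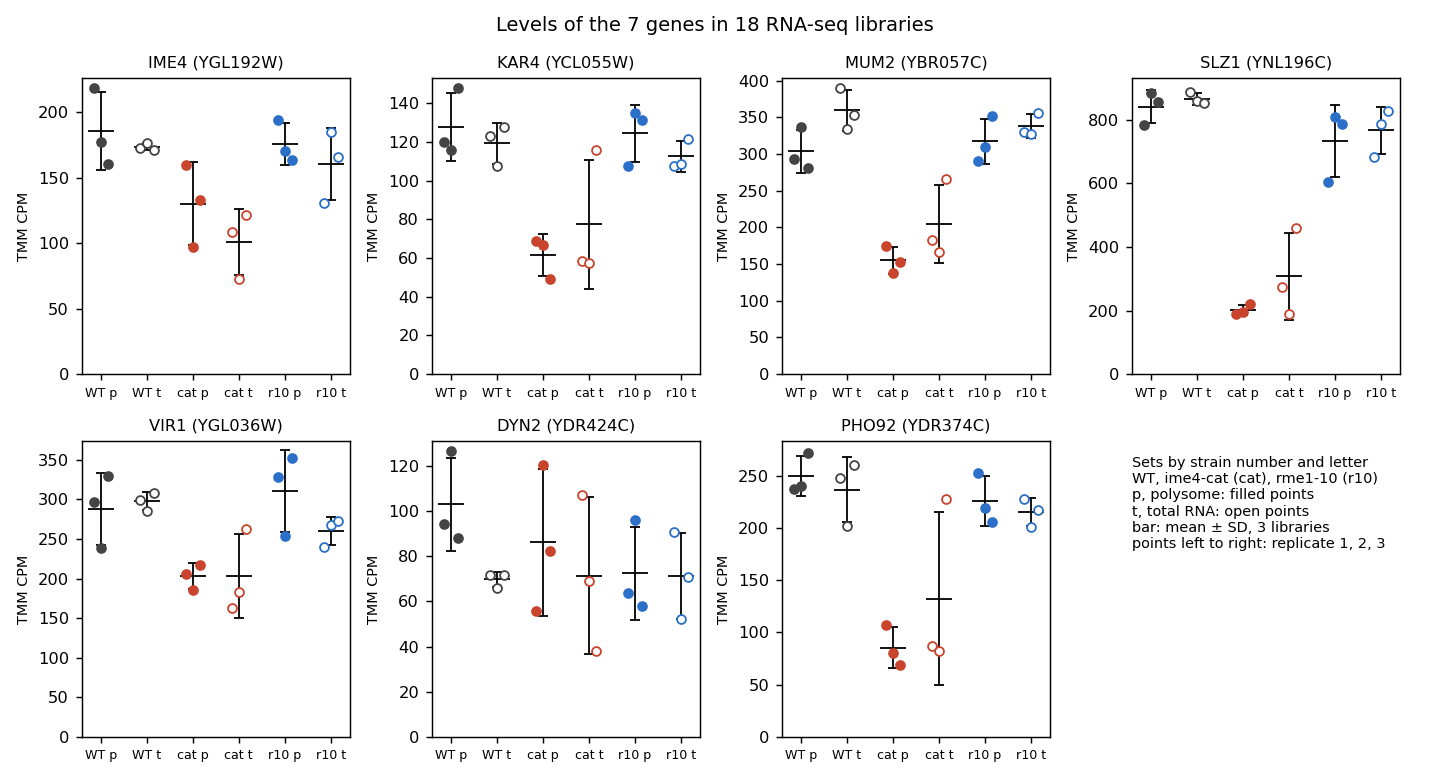
Level of each gene (TMM CPM, y axis from 0) in each of 18 libraries, grouped into 6 sets by strain number and letter, with mean and SD over 3 libraries. The 3 ime4-cat polysome libraries of SLZ1 sit between 191 and 221 CPM and the 3 WT polysome libraries between 782 and 884.

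Genes that mark meiotic prophase moved in the same libraries. The summed level of the 15 prophase markers was 4501 to 4844 CPM in WT polysomes and 1316 to 1417 CPM in *ime4-cat* polysomes. Of the 14 markers tested 14 fell, with a median log2 fold change of −1.92. *SPO13*, a regulator of the first meiotic division, fell by 2.43 on the log2 scale (adjusted p = 1.47e-08), *REC102* fell by 2.28 (adjusted p = 1.10e-06), *SPO11* fell by 2.25 (adjusted p = 1.80e-07) and *MEK1* fell by 2.103 (adjusted p = 1.48e-07). The last 3 act in meiotic recombination, and *SPO11* makes its DNA breaks. The part of this shift in the changes of the methyltransferase genes was not tested. The haploid markers summed to 207 to 222.4 CPM in WT and 207 to 264 CPM in *ime4-cat* polysomes, and 0 of the 7 tested were called by edgeR, with 1 at an unadjusted p under 0.05. Of the 6 markers of later meiosis 2 passed the filter and 0 were called, with 0 at an unadjusted p under 0.05. Their sum, 786 to 1067 CPM in WT and 754 to 1121 CPM in *ime4-cat* polysomes, came mostly from *SPS100*.

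Among the 10 regulators of meiotic entry 1 rose and 4 fell, with a median log2 fold change of −0.28. *RME1*, the repressor of meiosis, rose by 1.02 (SE 0.159, adjusted p = 1.40e-04). The kinase gene *IME2* fell by 1.64 (SE 0.153, adjusted p = 1.68e-07), *NDT80*, the transcription factor of middle meiosis, fell by 1.15 (SE 0.295, adjusted p = 0.00942) and *RIM4*, which encodes an RNA-binding protein, fell by 1.03 (SE 0.158, adjusted p = 1.10e-04). The fourth was *IME1*, the activator of early meiotic genes, named outside the rule for such lists, which fell by 0.86 (SE 0.161, adjusted p = 7.99e-04).

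Fixed lists of further genes were read against the 17.7% of all genes called in this comparison. Of 9 genes of the CCR4-NOT complex, the deadenylase that shortens poly(A) tails and with which YTH readers are known to act in mammals, 0 were called by edgeR, with 0 at an unadjusted p under 0.05, and their median was −0.12. Of 9 genes of dynein and dynactin, the motor that holds Dyn2p as its light chain, 8 were tested, 0 rose and 1 fell. This was *PAC11*, the dynein intermediate chain, at −0.84 (SE 0.265, adjusted p = 0.0326), and the median was −0.19. Among 4 genes listed around *KAR4* in mating (*STE12*, *KAR3*, *CIK1* and *VIK1*, called mating genes below) 0 rose and 1 fell. It was the kinesin gene *KAR3* at −0.77 (SE 0.201, adjusted p = 0.0107), and the median was −0.43.

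Methylation uses S-adenosylmethionine, and 4 genes of that cycle were examined. *SAM1*, which makes the methyl donor, rose by 0.79 (SE 0.157, adjusted p = 0.00138), and *SAH1*, which removes the product of methylation, fell by 0.73 (SE 0.241, adjusted p = 0.0397). The near-identical copy *SAM2* was at 0.54 (adjusted p = 0.0518), and reads that *SAM1* and *SAM2* share may have been divided or dropped in the counting, so both are uncertain. *ADO1*, adenosine kinase, was at −0.08 (adjusted p = 0.852).

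Total mRNA of the *ime4-cat* set against the WT total set asks whether the same differences were present before the gradient. By title these sets are WT input and *rme1-10* polysomal mRNA, so the comparison holds only under the strain numbers. Under those, *SLZ1* fell 2.85-fold and was the 1 member called lower. The other 6 did not pass the test. Of 5880 genes tested 2.24% were called in either direction and 1.05% were called lower.

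*SLZ1* was at 886, 859 and 852 CPM in WT total and at 273, 190.5 and 459 CPM in *ime4-cat* total. No libraries overlapped, but *ime4-cat* library 3 was the highest of its set. The log2 fold change was −1.51 (SE 0.271, adjusted p = 0.0405). This call was lost without any single other library, with an adjusted p of 0.141, 0.176 and 0.217 without WT total libraries 1, 2 and 3, and 0.0664 and 0.113 without *ime4-cat* total libraries 1 and 2. It was kept without *ime4-cat* total library 3 (−1.91, adjusted p = 4.51e-05).

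*MUM2* was at 390, 334 and 354 CPM in WT total and at 183, 167 and 265 CPM in *ime4-cat* total, with a log2 fold change of −0.82 (SE 0.190, adjusted p = 0.0571). *IME4* was at 173, 177 and 171 CPM and at 109, 73.0 and 122 CPM, with −0.80 (SE 0.197, adjusted p = 0.0649). *VIR1* was at 299, 286 and 308 CPM and at 163, 183 and 263 CPM, with −0.57 (SE 0.188, adjusted p = 0.125). For these 3 genes and *SLZ1* all *ime4-cat* values lay below all WT values, which was true of 13.7% of all genes tested.

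*PHO92* was at 248, 202 and 261 CPM in WT total and at 86.6, 82.7 and 228 CPM in *ime4-cat* total, with a log2 fold change of −0.86 (SE 0.356, adjusted p = 0.210). *KAR4* was at 123, 108 and 128 CPM and at 58.7, 57.5 and 116 CPM, with −0.65 (SE 0.269, adjusted p = 0.212). For both genes libraries 1 and 2 of *ime4-cat* lay well under WT, and library 3 lay within the WT range. *DYN2* was at 71.9, 65.9 and 71.7 CPM and at 107, 69.1 and 37.8 CPM, with 0.04 (interval −0.62 to 0.69). Its library 3 was the lowest of the set, the opposite of the other 6 genes.

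The number of members called changed with library 3, and also with the test and the fit. It was 3 with DESeq2, 3 with the replicate block, 6 in 1 fit over all 18 libraries, and 0 without any other single library. Against the mean of libraries 1 and 2 of the set, it held 2.70 times the *PHO92* level, 2.00 times *KAR4*, 1.98 times *SLZ1*, 1.52 times *VIR1* and *MUM2*, 1.34 times *IME4* and 0.429 times *DYN2*. Its prophase marker sum was likewise the highest of the set, as given above, while its haploid marker sum was 251 CPM against 261 and 239. Library 3 was set apart by that prophase sum, and members vary like markers in it (*SLZ1* with *DMC1*, r = 0.993, *MUM2* with *REC8*, r = 0.973). Counts of members or markers without the library are therefore a description and no separate support. Without library 3, 6 of the 7 members were called lower, where 19.2% of 5932 genes tested were called in either direction and 9.37% were called lower. *PHO92* then stood at −1.49 (adjusted p = 2.66e-04), *MUM2* at −1.04 (adjusted p = 6.51e-04), *KAR4* at −1.04 (adjusted p = 0.00143), *VIR1* at −0.80 (adjusted p = 0.00253) and *IME4* at −0.93 (adjusted p = 0.00464). *DYN2* was at 0.35 (adjusted p = 0.245). The part of the library's cell stage in these values was not tested. With library 3, 4 of 15 prophase markers fell and 0 rose, with a median of −1.42. Without it 15 of 15 fell, with a median of −2.11.

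**Figure D3:**
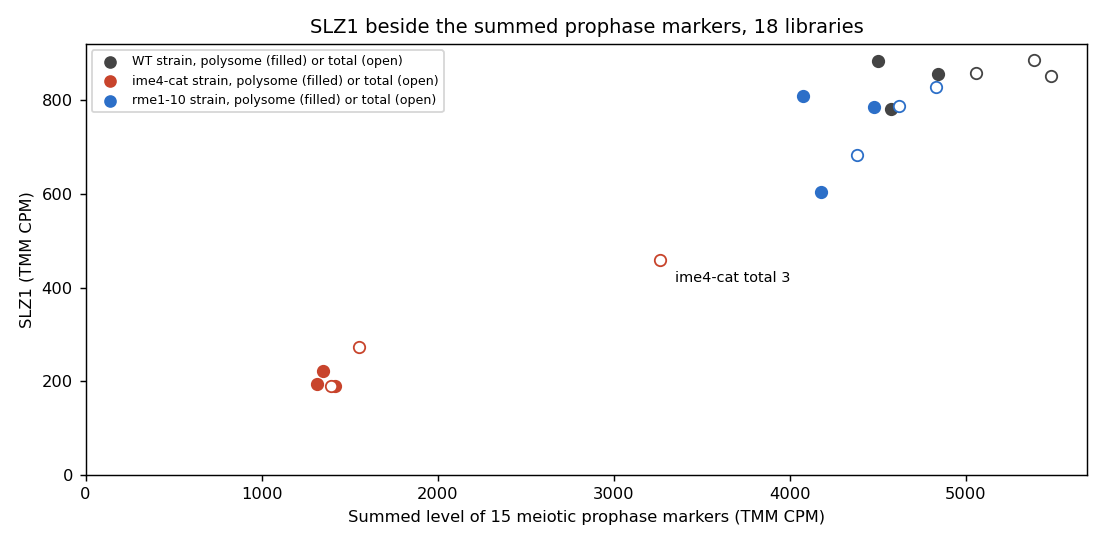
SLZ1 level (TMM CPM, y axis) against the summed level of 15 meiotic prophase markers (TMM CPM, x axis) in 18 libraries, coloured by strain number and filled for polysome, open for total. Library 3 of ime4-cat total, at 3266 CPM of markers and 459 CPM of SLZ1, lies between the other ime4-cat libraries and the rest.

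Of the other lists in total mRNA, the entry regulators had 1 gene called of 10, where 2.24% of all genes were called. This was *RME1*, which rose by 1.04 (SE 0.172, adjusted p = 0.0350) and, without library 3, by 0.94 (adjusted p = 0.00218). *PAC11* fell by 1.19 (SE 0.240, adjusted p = 0.0460), 1 of 9 genes of dynein and dynactin, and stood at −1.12 without library 3 (adjusted p = 0.00581). None of the CCR4-NOT, methyl donor and mating genes were called by edgeR, with 1, 2 and 1 at an unadjusted p under 0.05, and their medians were −0.14, 0.16 and −0.51. Without library 3, where 19.2% of all genes were called, 1 of the 10 entry regulators rose and 4 fell, 2 of 9 genes of dynein and dynactin fell, and 1 of 9 CCR4-NOT genes fell. In that fit 2 of 4 methyl donor genes rose and 2 of 4 mating genes fell, and the 3 medians were −0.18, 0.35 and −0.92. All 6 markers of later meiosis were tested in total mRNA, and 0 were called with library 3, with 5 negative and a median of −0.28. Without it 2 fell, *SPS4* at −2.39 (adjusted p = 0.0184) and *SPR3* at −1.52 (adjusted p = 0.0172), and the median was −0.20. Both were low, at medians of 10.1 and 16.6 CPM over the 18 libraries.

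The comparisons with *rme1-10* ask whether the loss of a single methylated base in *RME1* mRNA, with Ime4p active, moved the same genes. They depend on the strain numbers, and they share the WT libraries with the comparisons above. In polysomes 0 of the 7 were called by edgeR or by DESeq2 and 1 had an unadjusted p under 0.05, where 2 of 5608 genes were called (0.0357%). *SLZ1* was at 605, 809 and 786 CPM in *rme1-10* polysomes, which overlaps its WT range. Its log2 fold change was −0.20 with an interval from −0.49 to 0.09. *PHO92* was at 253, 219 and 206 CPM, with an interval from −0.43 to 0.13, and *MUM2* at 290, 310 and 351 CPM, with an interval from −0.22 to 0.34. The estimate furthest from 0 was that of *DYN2*, at 63.5, 96.1 and 58.0 CPM and a log2 fold change of −0.44 (interval −0.84 to −0.04, adjusted p = 0.999). The intervals of *IME4* (−0.38 to 0.23), *KAR4* (−0.37 to 0.27) and *VIR1* (−0.23 to 0.40) held 0.

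In total mRNA of the *rme1-10* set 0 of the 7 were called, by edgeR or by DESeq2, and 0 had an unadjusted p under 0.05. Of 5900 genes 0 were called (0%), with 234 at an unadjusted p under 0.05 and 0 called by DESeq2. The 7 estimates lay between −0.19 and 0.03 on the log2 scale. *SLZ1* was at 684, 788 and 829 CPM against 852 to 886 in WT total, and *VIR1* at 240, 268 and 273 CPM against 286 to 308. These were the 2 genes whose libraries did not overlap, as 4.63% of all genes did in that direction. The intervals were −0.36 to 0.02 for *SLZ1* and −0.38 to 0.01 for *VIR1*. In this comparison the deviations of libraries with the same replicate number correlated at 0.471, 0.237 and 0.253. Libraries with different numbers reached up to 0.333, so the pairing is uncertain. Blocking on the replicate number gave calls for 123 genes (2.08%) and again 0 of the 7, among which the lowest adjusted p was 0.219 for *SLZ1*. None of the genes in the fixed lists was called by edgeR in either *rme1-10* comparison without the block.

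*RME1* itself, the gene that carries the base change, was at 146, 116 and 111 CPM in *rme1-10* polysomes against 74.1, 81.8 and 90.5 CPM in WT polysomes. In total mRNA it was at 169, 137 and 133 CPM against 109, 109 and 88.1 CPM. In both fractions every *rme1-10* library was above every WT library, which was true of 4.96% of all genes tested in polysomes and 4.73% in total mRNA. The log2 fold changes were 0.60 (SE 0.167, adjusted p = 0.735) and 0.52 (SE 0.136, adjusted p = 1.000), which missed the threshold over all genes. With the block the total value was 0.51 (SE 0.0954, adjusted p = 7.26e-04), and *RME1* was called. The block also called 5 of the 15 prophase markers lower, from −0.19 for *DMC1* (adjusted p = 0.0389) to −0.34 for *MEK1* (adjusted p = 0.0140), and the later marker *SPS4* higher at 1.66 (adjusted p = 1.26e-05).

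The prophase marker sums were 4077 to 4480 CPM in *rme1-10* polysomes, below the 4501 to 4844 CPM of WT polysomes. They were 4384 to 4832 CPM in *rme1-10* total, below the 5061 to 5483 CPM of WT total. The sums therefore did not overlap with WT in either fraction. They weigh abundant markers most, such as *DMC1* at a median of 1305 CPM over the 18 libraries. In polysomes 12 of the 14 markers tested had negative estimates, with a median log2 fold change of −0.11. Of these 14, 1 had an unadjusted edgeR p under 0.05. In total mRNA 13 of 15 were negative, with a median of −0.18 and 4 under that p. Over all genes tested, 220 of 5608 in polysomes and 234 of 5900 in total mRNA were under that p, and the medians were −0.001 and −0.002. The markers were measured in the same libraries, so their signs are not independent, and 0 were called in either fraction without the block. The total sums were lower in the same libraries as *SLZ1* and *VIR1*. Their part in those values was not tested.

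**Figure D4:**
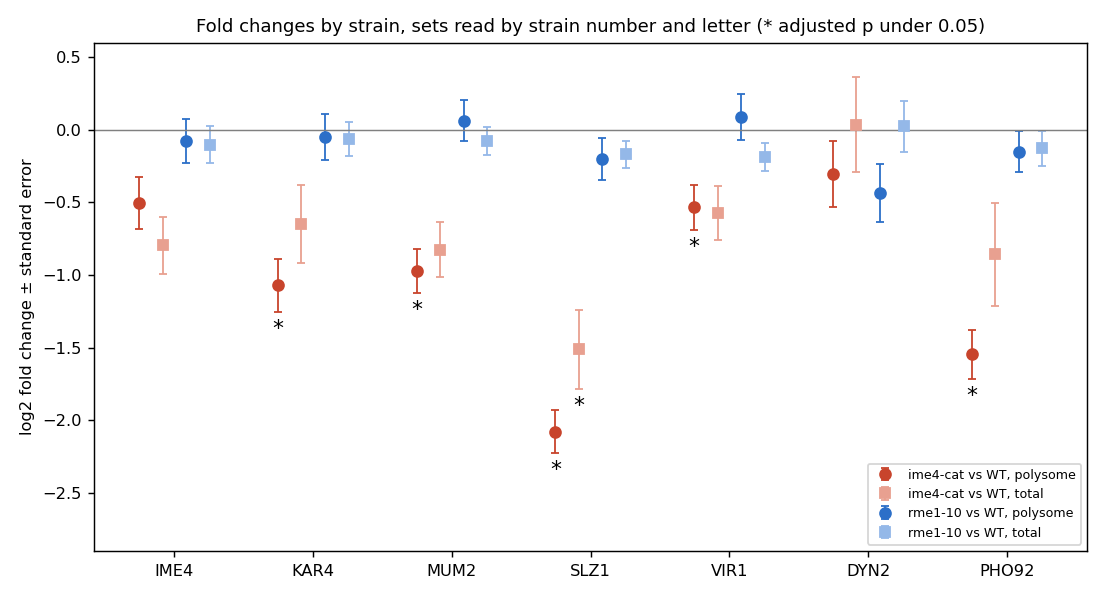
Log2 fold change of each gene against WT (y axis, with standard errors from edgeR) in polysomal and total mRNA, for ime4-cat and rme1-10, with sets read by strain number and letter and asterisks where the adjusted p was under 0.05. SLZ1 stands at −2.08 and −1.51 in ime4-cat and at −0.20 and −0.17 in rme1-10.

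The ratio of polysomal to total mRNA describes the level of an mRNA in the polysome pool relative to the other mRNAs. Each library was scaled to its own counts, so a shift of all mRNAs together cannot be seen. The ratio also rests on the strain numbers, since by title each such ratio and each change of a ratio joins other libraries. In the main fits of the ratio and of its change, both fractions entered as separate libraries, without a term for a shared lysate. Deviations of same-number polysome and total libraries correlated weakly. The values were 0.0558, 0.0133 and 0.124 in WT, 0.0355, 0.103 and −0.0223 in *ime4-cat*, and 0.0641, −0.138 and 0.105 in *rme1-10*. In WT cells 1 of the 7 mRNAs was called between the fractions, where 24.1% of 5747 genes were called and 12.5% were called higher in polysomes. This was *DYN2*, at 94.3 to 126 CPM in polysomes and 65.9 to 71.9 CPM in total mRNA, 1.45-fold higher (log2 0.53, SE 0.156, adjusted p = 0.0190). All its polysomal values lay above all total values, which was true of 18.5% of all genes. The call was lost without WT polysome library 2 (0.39, adjusted p = 0.0653), WT total library 2 (0.48, adjusted p = 0.0937) and WT total library 3 (0.56, adjusted p = 0.0536), under DESeq2 (adjusted p = 0.0552) and in 1 fit over all 18 libraries (0.55, adjusted p = 0.266). The other 6 estimates lay between −0.24 (*MUM2*, interval −0.49 to 0.00) and 0.12 (*KAR4*, interval −0.16 to 0.40).

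In *ime4-cat* cells 0 of the 7 mRNAs were called between polysomal and total mRNA by edgeR or by DESeq2, with 1 at an unadjusted p under 0.05, and 0.0701% of 5705 genes were called. The estimates ran from −0.62 for *PHO92* (interval −1.36 to 0.11) to 0.38 for *IME4* (interval −0.12 to 0.87). Without library 3 of the total set *PHO92* moved to 0.03 (interval −0.41 to 0.47), *SLZ1* moved from −0.61 to −0.20 (interval −0.60 to 0.20) and *IME4* stood at 0.53 (interval 0.07 to 0.99, adjusted p = 0.217). Again 0 of the 7 were called, where 2.01% of 5611 genes were. In *rme1-10* cells 0 of the 7 were called by either tool, with 0 at an unadjusted p under 0.05, and 8.82% of 5818 genes were called. There the estimates ran from −0.10 for *MUM2* to 0.24 for *VIR1* (interval −0.05 to 0.53).

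Whether this relative loading on polysomes changed was tested by an interaction of strain and fraction. For both strains 0 of the 7 had an unadjusted p under 0.05 in edgeR, and 0 were called by DESeq2. For *ime4-cat* 0 of the 7 were called and 0 of 5827 genes (0%), with 157 at an unadjusted p under 0.05 and 0 by DESeq2. The intervals were wide, from −1.55 to 0.17 for *PHO92*, −1.19 to 0.07 for *SLZ1* and −0.29 to 0.87 for *IME4*. Without library 3 of the total set *PHO92* moved from −0.69 to −0.04 (interval −0.52 to 0.44) and *SLZ1* from −0.56 to −0.15 (interval −0.58 to 0.27), and 0 of the 7 and 0% of 5827 genes were called. For *rme1-10* 0 of the 7 were called and 0 of 5857 genes (0%), with 131 at an unadjusted p under 0.05 and 3 by DESeq2. The widest interval was that of *DYN2* (−1.03 to 0.12), and the narrowest that of *MUM2* (−0.19 to 0.48).

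Over all 18 libraries, each member was set beside the 5121 other genes with a mean of at least 20 CPM by the Pearson correlation of log2 CPM. The libraries share strains and fractions, and the 6 *ime4-cat* libraries are the 6 lowest for *SLZ1*, so r is a description. *SLZ1* varied most like *DMC1*, the meiotic recombinase (r = 0.993), *MEI5*, which encodes a partner of Dmc1p (r = 0.989), and *GMC2* of the synaptonemal complex (r = 0.978). *MUM2* was closest to the meiotic cohesin gene *REC8* (r = 0.973), *GMC2* (r = 0.968) and the kinase gene *MEK1* (r = 0.967). *KAR4* was closest to *RNP1* (r = 0.975), YLL047W (r = 0.966) and its fellow member *PHO92* (r = 0.964). The reader *PHO92* was itself closest to *RNP1* (r = 0.985) and YLL047W (r = 0.972), followed by *SPO13* (r = 0.970).

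*VIR1* was closest to the ubiquitin ligase gene *UBR2* (r = 0.936), the synaptonemal complex gene *ZIP1* (r = 0.933) and *CIK1*, which encodes a partner of the kinesin Kar3p (r = 0.927). *IME4* was closest to *BUD21* (r = 0.935), the synapsis gene *CST9* (r = 0.913) and YGR226C (r = 0.896). *DYN2* was closest to YDR327W (r = 0.885), the membrane fusion gene *SEC17* (r = 0.855) and the RNase H2 gene *RNH203* (r = 0.853).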

How the data were processed

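The authors deposited counts, whole numbers of reads per gene without normalization, in 1 table for each of 18 RNA-seq libraries. The labels' processing notes name TopHat2 and sacCer3. The counting program and strand setting are not given in the sources used here. The 5 closing entries of each table stayed out of library sizes, and reads without a unique alignment made up 57.5% to 94.3% of all entries. For 12 further samples, from m6A-seq, no table was analysed here. RefSeq names matched 6048 of 7126 genes.

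Each comparison was fitted on the libraries it names with edgeR 4.0.16 in R 4.3.3 (filterByExpr, TMM, glmQLFit, glmQLFTest), with Benjamini-Hochberg adjustment over all genes tested and a threshold of 0.05. Standard errors are the fold change over the root of F. The fit was tested on simulated data. Log2 CPM for the correlations used a prior count of 2. No replicate pair agreed within sampling noise. Alternatives were DESeq2 1.42.0 size factors and Wald test, library size only, 2 count filters (at least 1 in total, at least 10 per library), 1 fit over 18 libraries, the replicate block, each library left out and sets by title. Numbers were taken to pair libraries where every same-number correlation of deviations was over 0.1, which held for total *rme1-10* against WT (0.471, 0.237 and 0.253). The highest value between different numbers there was 0.333. Total *ime4-cat* against WT missed this cut, at 0.294, 0.180 and 0.0837, with at most 0.0804 between different numbers. Named list genes are the up to 4 called members with the largest change. The members and lists were chosen with earlier results of these data known.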

Additional observations from a re-analysis of the deposited data

How the results depend on the processing

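Of 959 values of single members under an alternative, 15 lost a call, 32 gained one and 7 reversed with a call on at least 1 side. These 7 all came from choosing sets by title. Counting values never called as well, the sign changed in 31 of 56 values by title and in 57 of 903 under the other alternatives. By title, total *ime4-cat* against WT turned to 0.74 for *MUM2*, 0.72 for *PHO92*, 0.69 for *IME4*, 0.57 for *KAR4* and 0.38 for *VIR1*. *SLZ1* stood at 1.34 there, 1.25 in total *rme1-10* against WT and 1.46 in WT polysomal against total. *VIR1* stood at −0.37 in *ime4-cat* polysomal against total and −0.91 in the loading change of *ime4-cat*, and *IME4* at −1.20 and −0.89 in the loading changes of *ime4-cat* and *rme1-10*. By title 0 members were called in total *ime4-cat* against WT, 1 in both polysomal and total *rme1-10* against WT, 2 in WT polysomal against total, 5 in *ime4-cat* polysomal against total, and 6 and 2 in the loading changes of *ime4-cat* and *rme1-10*. Under the strain numbers, total *ime4-cat* against WT (1 member, 132 genes) gave 3 members with DESeq2 (431 genes), 2 with at least 10 counts (194 genes), 6 with 1 fit over 18 libraries (868 genes), 3 with the replicate block (362 genes) and 0 to 6 with a library left out (0 to 1140 genes). WT polysomal against total (1 member, 1383 genes) gave 0 with DESeq2 (829 genes), 0 with 1 fit over 18 libraries (614 genes) and 0 to 1 with a library left out (709 to 1481 genes). With the replicate block *DYN2* was called in polysomal *rme1-10* against WT (1 member, −0.51, 103 genes), and 1605 genes were called in polysomal *ime4-cat* against WT, with *IME4* at an adjusted p of 0.00137. The pairing of numbers is not given by the labels there. Apart from these cases and *IME4* and *MUM2* in total *ime4-cat* against WT, the block changed no call of a member. The cause of these shifts was not tested.

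Counts over all genes moved by over 1.5 times in further cases. Polysomal *ime4-cat* against WT gave 511 to 966 genes with a library left out, against 970. *ime4-cat* polysomal against total gave 0 to 113 with a library left out, 65 with DESeq2, 446 with 1 fit over 18 libraries and 21 with the block, against 4. *rme1-10* polysomal against total gave 74 to 731 with a library left out, 266 with 1 fit over 18 libraries and 334 with the block, against 513. By title the counts were 17 in total *ime4-cat* against WT, 1383 and 310 in polysomal and total *rme1-10* against WT, 629 in WT and 1882 in *ime4-cat* polysomal against total, and 1177 and 1382 in the loading changes. Without TMM factors 36.8% of calls in polysomal *ime4-cat* against WT were higher, against 46.9%, and 34.5% in total *ime4-cat* against WT, against 53.0%.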
